A study of Homo sapiens with 9 samples.

Results

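The genes described here are BHLHE41 and 9 other genes of the circadian clock, measured in 293T cells that carried an empty plasmid or 1 of 2 fusion oncoproteins. They were chosen by symbol: the repressors BHLHE41 and BHLHE40, the period genes PER1, PER2 and PER3, the cryptochromes CRY1 and CRY2, the nuclear receptors NR1D1 and NR1D2, and the output factor DBP. BHLHE41 was picked because its level was higher with CIC::NUTM1 and not with CIC::DUX4, so its values below are a description without a test. The 10 genes are 10 of 62700 in the count table, and 10 of 10 passed the abundance filter that left 17576 genes for testing.

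PolyA RNA was sequenced from 293T, a transformed human embryonic kidney line, in 3 groups of 3 libraries. All groups were reverse transfected with Fugene 6 and a plasmid: one with no insert (empty vector), one encoding HA-CIC(ex20)::NUTM1(ex6), an HA-tagged fusion named for exon 20 of CIC and exon 6 of NUTM1, or one encoding HA-CIC::DUX4. Per the labels' protocols each condition used 300000 cells, replicates were transfected on separate days, and RNA was taken about 48 hours later. The fusions were therefore carried by plasmids in 1 cell line, for a short time, and the labels describe no sorting of cells that took up plasmid. In bulk RNA, a change in fewer cells and a smaller change in every cell cannot be told apart.

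The mammalian clock is a feedback loop of transcription. CLOCK and BMAL1 bind E-box sequences and switch on the PER and CRY genes, whose proteins then hold CLOCK and BMAL1 back. BHLHE40 and BHLHE41 are basic helix-loop-helix repressors that bind the same E-boxes, the NR1D receptors (REV-ERB proteins) repress BMAL1, and DBP activates genes through D-box sequences. Libraries collected at a single time after transfection give levels of these genes, not their rhythm.

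The E-box sequences within 250 bases before RefSeq start sites of these genes are shown first, because BHLHE41, BHLHE40 and the CLOCK and BMAL1 pair are known to act through them. RefSeq promoter windows (GRCh38.p14, 250 bases before to 50 after a start site) were found for 10 of the 10 genes, 13 windows in all. The E-box CACGTG, searched on both strands, lay in windows of 4 genes (BHLHE41, BHLHE40, PER1 and NR1D2), and 7.26% of all 35116 windows held it. The variant CACGTT, or AACGTG on the other strand, lay in windows of 4 others (PER2, CRY1, CRY2 and NR1D1), against 5.34% of all windows. The sites lie before 1 RefSeq start, not before the whole gene. In GENCODE 29 the 30-base stretches printed for the 4 sites of BHLHE41, BHLHE40, CRY1 and CRY2 overlap an exon. Another 4, of PER1, PER2 and NR1D2, lie within the gene's bounds outside its exons, and 1, that of NR1D1, lies outside the gene. Each site follows as 30 bases 5′ to 3′ on the gene's strand, with the matched letters in capitals:
BHLHE41 chr12:26125068-26125097 (minus strand): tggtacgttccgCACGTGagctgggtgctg
BHLHE40 chr3:4979187-4979216 (plus strand): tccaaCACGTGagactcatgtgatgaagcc
PER1 chr17:8152560-8152589 (minus strand): agcacccaggtcCACGTGcgcccgtgtgtg
PER2 chr2:238288790-238288819 (minus strand): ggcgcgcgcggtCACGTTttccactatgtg
CRY1 chr12:107093621-107093650 (minus strand): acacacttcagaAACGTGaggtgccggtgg
CRY2 chr11:45847275-45847304 (plus strand): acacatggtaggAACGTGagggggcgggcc
NR1D1 chr17:40100740-40100769 (minus strand): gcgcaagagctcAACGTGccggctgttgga
NR1D2 chr3:23945954-23945983 (plus strand): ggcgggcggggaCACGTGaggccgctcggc
NR1D2 chr3:23946004-23946033 (plus strand): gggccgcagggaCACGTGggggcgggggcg

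PER2, of the 10 the gene with the largest change in both comparisons with empty vector, also held a D-box beside its start. Its promoter from 250 bases before the start site, at GRCh38.p14 chr2:238288606-238288860 on the minus strand, is shown with the E-box variant and the D-box TTACGTAA in capitals:
PER2 promoter: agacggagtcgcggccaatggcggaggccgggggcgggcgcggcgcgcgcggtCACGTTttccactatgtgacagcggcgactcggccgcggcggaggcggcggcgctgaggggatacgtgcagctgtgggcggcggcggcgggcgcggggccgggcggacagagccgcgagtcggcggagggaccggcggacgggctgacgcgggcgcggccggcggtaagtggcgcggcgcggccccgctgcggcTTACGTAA
The D-box was searched as TTATGTAA or TTACGTAA on both strands, and 1.01% of all windows held it. Windows of PER2, PER3 and NR1D2 did. The RORE, the element that NR1D receptors bind, was found for NR1D2, against 0.316% of all windows. The cAMP response element TGACGTCA (1.85% of all windows) and the CIC octamers TGAATGAA, TGAATGGA, TCAATGAA and TCAATGGA (3.77%) were in 0 of the 13 windows. A match describes letters and is not a bound site, and 0 matches says only that those letters are not in these windows.

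**Figure D1:**
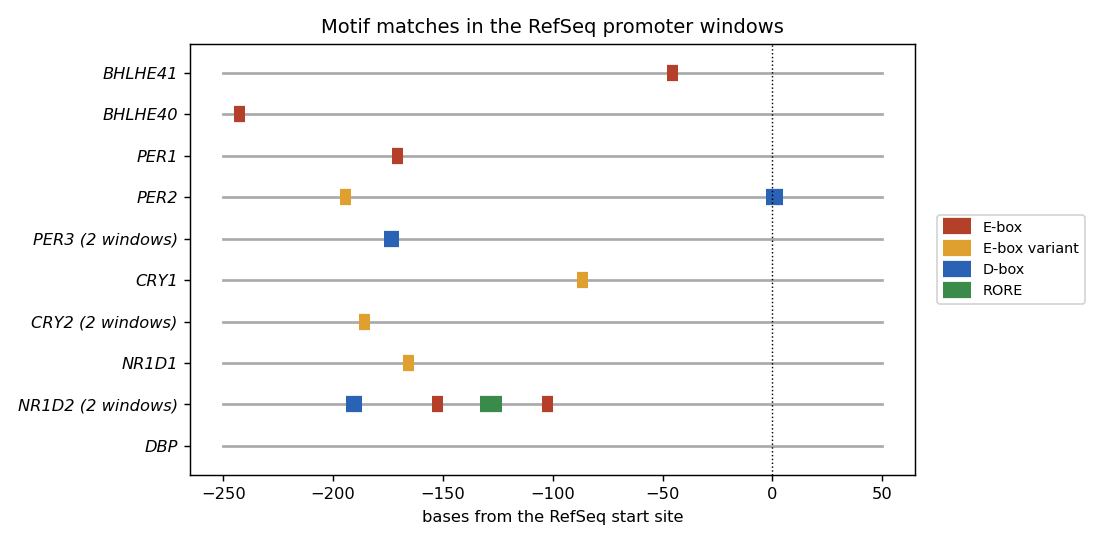
Positions of the motifs in the promoter windows of the members, in bases from the RefSeq start site (horizontal axis), with 1 line per gene (windows of the same gene drawn together) and 1 colour per motif. The E-box of BHLHE41 lies 48 bases before the start, and the D-box of PER2 begins 3 bases before it.

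Total counts per library ranged from 16970771 to 33655445, and TMM scaling factors from 0.9749 to 1.016. Levels below are counts scaled to library size with TMM factors (CPM), given for replicates 1, 2 and 3 in that order, and a difference is a log2 fold change with its SE. The edgeR quasi-likelihood test was fitted to all 9 libraries and p-values were adjusted over the 17576 genes by Benjamini-Hochberg, with a call at an adjusted p under 0.05. Whether each library carried its labelled plasmid was not analysed here. Of 6 genes that 293T cells express, 6 were detected in every library, from PAX2 (4.14 to 8.24 CPM) to VIM (552 to 750 CPM). LIN28B, VIM and CDH2 of these were called higher with CIC::NUTM1 (log2 differences 0.38, 0.31 and 0.61). LIN28B and KRT8 were called higher with CIC::DUX4 (0.32 and 1.31). Between the fusions CDH2 was called higher (0.51) and KRT8 lower (-1.34) with CIC::NUTM1. Of 6 refits that left out 1 library, 1 lost the LIN28B call with CIC::DUX4. The KRT8 calls were lost in 2 (CIC::DUX4) and 1 (between the fusions). Of 6 genes of other cell types, none passed 1.47 CPM in any library. The leukocyte gene PTPRC, at 0 to 0.0586 CPM with empty vector, was at 0.612 to 1.44 CPM with CIC::NUTM1 and at 0.144 to 0.915 CPM with CIC::DUX4. Only 2 of these 6 genes were tested. PTPRC was called higher with CIC::NUTM1 (adjusted p = 0.00118) and with CIC::DUX4 (0.0242), the latter call being lost in 3 of 6 such refits. Its counts were 0, 2 and 0 with empty vector, 24, 16 and 13 with CIC::NUTM1 and 24, 3 and 3 with CIC::DUX4. It passed the abundance filter through the CIC::NUTM1 libraries, where it was high, so its calls are a description and not a test. The part of these genes in the results below was not tested.

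Among the 9 genes other than BHLHE41, 4 rose with CIC::NUTM1 (PER1, PER2, CRY1 and CRY2) and 0 fell. With CIC::DUX4, 4 rose (PER1, PER2, CRY1 and DBP) and 0 fell. For CIC::NUTM1 against empty vector, 15.3% of all tested genes were called, 11.5% as higher and 3.83% as lower. For CIC::DUX4 the shares were 8.24%, 6.96% and 1.27%. Between the fusions, 2 of the 9 genes (PER2 and CRY2) were higher with CIC::NUTM1 and 0 were lower, where 6.61% of all tested genes were called, 4.97% higher and 1.64% lower. The called genes were also those whose libraries did not overlap between the groups. Such separation was seen in 31.1% of all tested genes with CIC::NUTM1 (18.2% higher), in 25.7% with CIC::DUX4 (14.8% higher) and in 22% between the fusions (12.6% higher). The median log2 fold change of the 9 genes was 0.27 with CIC::NUTM1 and 0.26 with CIC::DUX4, beside medians of 0.00 over all tested genes. Both comparisons use the same empty vector libraries, so an unusual control value enters both.

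**Figure D2:**
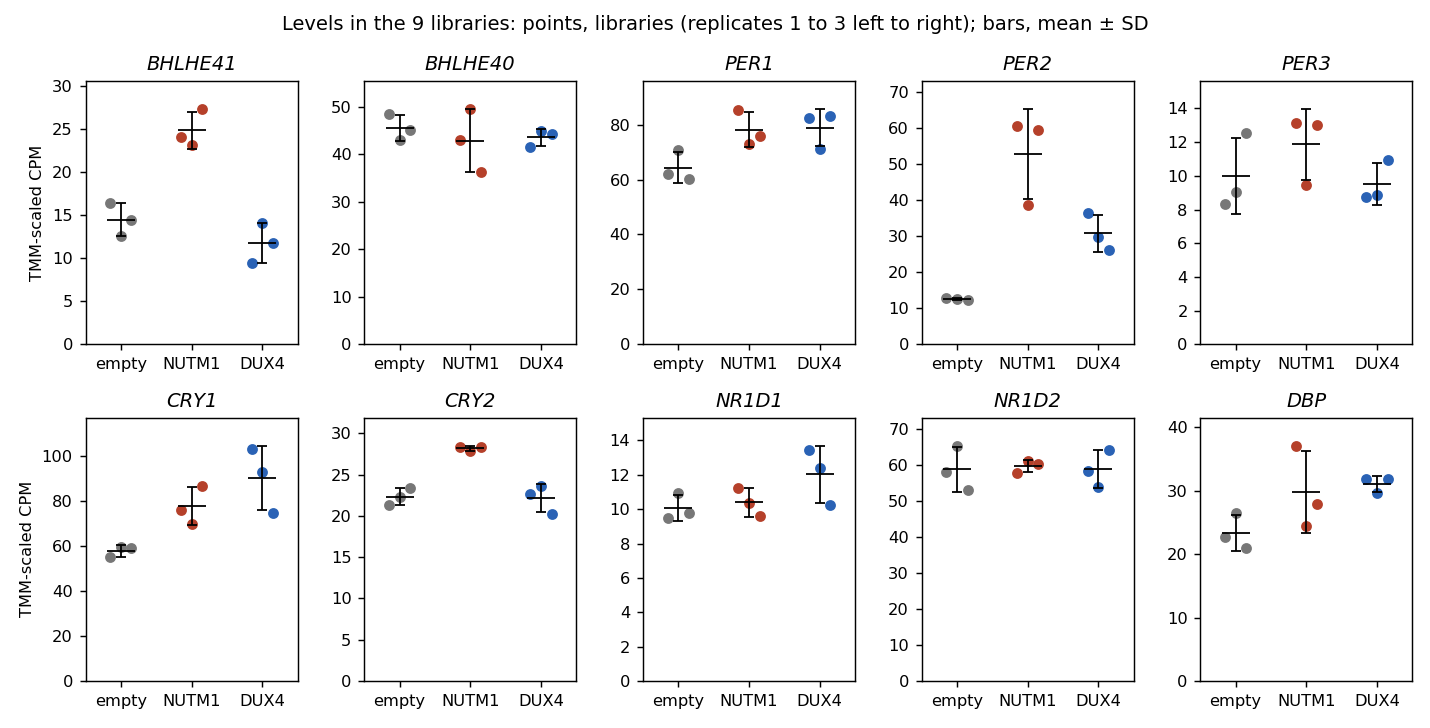
Levels of the 10 genes in each library (TMM-scaled CPM, linear axis from 0), with points for replicates 1 to 3 of empty vector, CIC::NUTM1 and CIC::DUX4 and bars for the mean ± SD of 3 libraries. The PER2 points of the 3 groups are fully separate, and the BHLHE41 points with CIC::NUTM1 (23.1 to 27.3 CPM) lie above those of both other groups.

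BHLHE41 (DEC2, ENSG00000123095, chr12:26120026-26125127 on the minus strand in GENCODE 29), a repressor that competes with CLOCK and BMAL1 at E-boxes, was at 16.4, 12.5 and 14.4 CPM with empty vector. With CIC::NUTM1 it was at 24.0, 23.1 and 27.3 CPM. With CIC::DUX4 it was at 9.46, 14.1 and 11.8 CPM. The CIC::NUTM1 libraries were the highest 3 of the 9, while the CIC::DUX4 and empty vector libraries overlapped. The means were 14.4 ± 1.92, 24.8 ± 2.16 and 11.8 ± 2.31 CPM (SD, n = 3) for empty vector, CIC::NUTM1 and CIC::DUX4. As log2 fold changes these are 0.79 ± 0.14 for CIC::NUTM1 and -0.29 ± 0.15 for CIC::DUX4 against empty vector, and 1.08 ± 0.15 between the fusions. The CIC::DUX4 difference moved to -0.45 without CIC::DUX4 replicate 2, the highest library of that group, and the difference between the fusions then to 1.23. Leaving out CIC::DUX4 replicate 1, the lowest, the CIC::DUX4 difference was -0.15.

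BHLHE40 (DEC1), the paralog of BHLHE41 and a repressor at the same sequences, was at 48.5, 42.9 and 45.0 CPM with empty vector. It was at 42.9, 49.4 and 36.2 CPM with CIC::NUTM1 and at 41.5, 44.9 and 44.2 CPM with CIC::DUX4. The groups overlapped, and the CIC::NUTM1 libraries held both the highest and the lowest value. The log2 difference was -0.08 for CIC::NUTM1 (95% interval -0.29 to 0.12, adjusted p = 0.668) and -0.06 for CIC::DUX4 (-0.27 to 0.14, adjusted p = 0.812).

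The period genes encode the PER proteins, which with CRY form the repressing complex. PER2 (ENSG00000132326, chr2:238244038-238290102 on the minus strand in GENCODE 29), whose promoter is printed above, was at 12.7, 12.7 and 12.4 CPM with empty vector. It was at 60.6, 38.5 and 59.4 CPM with CIC::NUTM1. With CIC::DUX4 it was at 36.4, 29.8 and 26.1 CPM. No library of one group reached another group, and CIC::NUTM1 replicate 2 was the closest to CIC::DUX4. PER2 was 4.18-fold higher with CIC::NUTM1 (log2 2.06 ± 0.16, adjusted p = 6.38e-08). It was 2.45-fold higher with CIC::DUX4 (log2 1.29 ± 0.16, adjusted p = 2.82e-05). Between the fusions it was 1.71-fold higher with CIC::NUTM1 (log2 0.77 ± 0.15, adjusted p = 0.00391). These 3 calls held in each of the 6 refits per comparison that left out 1 library, with differences of 1.95 to 2.25, 1.15 to 1.39 and 0.66 to 0.96.

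PER1, which encodes a partner of PER2 in that complex, was at 61.97, 70.8 and 60.3 CPM with empty vector, at 85.3, 73.0 and 75.9 CPM with CIC::NUTM1 and at 82.5, 71.1 and 83.0 CPM with CIC::DUX4. Both fusions were above the controls without overlap, but empty vector replicate 2 lay within 1 CPM of the lowest CIC::DUX4 library. The log2 difference was 0.27 ± 0.09 for CIC::NUTM1 (adjusted p = 0.0293) and 0.29 ± 0.09 for CIC::DUX4 (adjusted p = 0.0329), and between the fusions -0.02 (95% interval -0.19 to 0.16, adjusted p = 0.952). These PER1 calls rest on single libraries. The CIC::NUTM1 call was lost without empty vector replicate 1 (adjusted p = 0.119) or 3 (0.165), or CIC::NUTM1 replicate 1 (0.152) or 3 (0.0665), and with library totals (0.0684) or upper quartile factors (0.065) as scaling. The CIC::DUX4 call was lost without empty vector replicate 1 (adjusted p = 0.129) or 3 (0.207), or CIC::DUX4 replicate 1 (0.184) or 3 (0.117).

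PER3, the least abundant of the period genes for its length, was at 8.35, 9.02 and 12.5 CPM with empty vector, at 13.1, 9.45 and 13.0 CPM with CIC::NUTM1 and at 8.74, 8.86 and 10.9 CPM with CIC::DUX4. All 3 groups overlapped. The log2 difference was 0.24 for CIC::NUTM1 (95% interval -0.12 to 0.60, adjusted p = 0.418) and -0.08 for CIC::DUX4 (-0.44 to 0.29, adjusted p = 0.877). The PER1 difference with CIC::NUTM1, 0.27, lies inside the PER3 interval, so an increase of that size is not excluded for PER3.

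Cryptochromes CRY1 and CRY2 are the partners of the PER proteins and the stronger repressors of CLOCK and BMAL1. CRY1 was at 54.9, 59.4 and 59.2 CPM with empty vector, at 76.1, 69.9 and 86.6 CPM with CIC::NUTM1 and at 102.9, 92.7 and 74.7 CPM with CIC::DUX4. Every fusion library exceeded every empty vector library, and the fusions overlapped each other. The log2 difference was 0.42 ± 0.10 for CIC::NUTM1 (adjusted p = 0.00465) and 0.64 ± 0.10 for CIC::DUX4 (adjusted p = 9.03e-05). Both calls held in all 6 refits that left out 1 library, the weakest at an adjusted p of 0.0486 for CIC::NUTM1. CIC::NUTM1 minus CIC::DUX4 was -0.22 ± 0.10 (adjusted p = 0.226), which became a call only without CIC::DUX4 replicate 3 (-0.34, adjusted p = 0.0295).

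CRY2 was at 21.3, 22.3 and 23.4 CPM with empty vector, at 28.4, 27.9 and 28.3 CPM with CIC::NUTM1 and at 22.7, 23.6 and 20.3 CPM with CIC::DUX4. The CIC::NUTM1 libraries lay above all 6 others, and those 6 overlapped. The log2 difference was 0.33 ± 0.10 for CIC::NUTM1 (adjusted p = 0.0282), -0.01 for CIC::DUX4 (95% interval -0.22 to 0.21, adjusted p = 0.979) and 0.34 ± 0.10 between the fusions (adjusted p = 0.0479). The first of these calls was lost without empty vector replicate 1 (adjusted p = 0.111), 2 (0.0822) or 3 (0.0548) or CIC::NUTM1 replicate 1 (0.0689) or 3 (0.0948), and with library totals (0.0587), upper quartile factors (0.0514) or no filter (0.0678). The call between the fusions was lost without any 1 of the 6 libraries: CIC::NUTM1 replicate 1 (0.0972), 2 (0.0731) or 3 (0.156), or CIC::DUX4 replicate 1 (0.0951), 2 (0.075) or 3 (0.196).

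NR1D1 and NR1D2 encode the REV-ERB receptors that repress BMAL1. NR1D1 was at 9.5, 10.9 and 9.78 CPM with empty vector, at 11.2, 10.4 and 9.58 CPM with CIC::NUTM1 and at 13.5, 12.4 and 10.2 CPM with CIC::DUX4. NR1D2 was at 58.1, 65.2 and 52.9 CPM with empty vector, at 57.6, 60.9 and 60.2 CPM with CIC::NUTM1 and at 58.2, 53.7 and 64.2 CPM with CIC::DUX4. The groups overlapped for both receptors. The log2 differences of NR1D1 were 0.04 for CIC::NUTM1 (95% interval -0.27 to 0.35, adjusted p = 0.907) and 0.26 for CIC::DUX4 (-0.05 to 0.57, adjusted p = 0.377). Those of NR1D2 were 0.02 (-0.16 to 0.20, adjusted p = 0.92) and 0.00 (-0.18 to 0.18, adjusted p = 0.99), so a change of NR1D2 beyond 0.20 on the log2 scale lies outside these intervals.

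DBP, an activator of D-box genes whose own gene is a direct target of CLOCK and BMAL1, was at 22.7, 26.4 and 20.9 CPM with empty vector, at 37.1, 24.5 and 28.0 CPM with CIC::NUTM1 and at 31.8, 29.7 and 31.8 CPM with CIC::DUX4. CIC::DUX4 was above the controls without overlap, whereas CIC::NUTM1 replicate 2 lay among the controls. The log2 difference was 0.41 ± 0.13 for CIC::DUX4 (adjusted p = 0.0467) and 0.34 ± 0.13 for CIC::NUTM1 (adjusted p = 0.0748). Between the fusions the difference was -0.07 (95% interval -0.33 to 0.20, adjusted p = 0.852). The CIC::DUX4 call was lost without empty vector replicate 1 (0.136) or 3 (0.254) or CIC::DUX4 replicate 1 (0.172), 2 (0.0755) or 3 (0.113). A CIC::NUTM1 call appeared without empty vector replicate 2 (0.0399) or CIC::NUTM1 replicate 2 (0.0108).

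**Figure D3:**
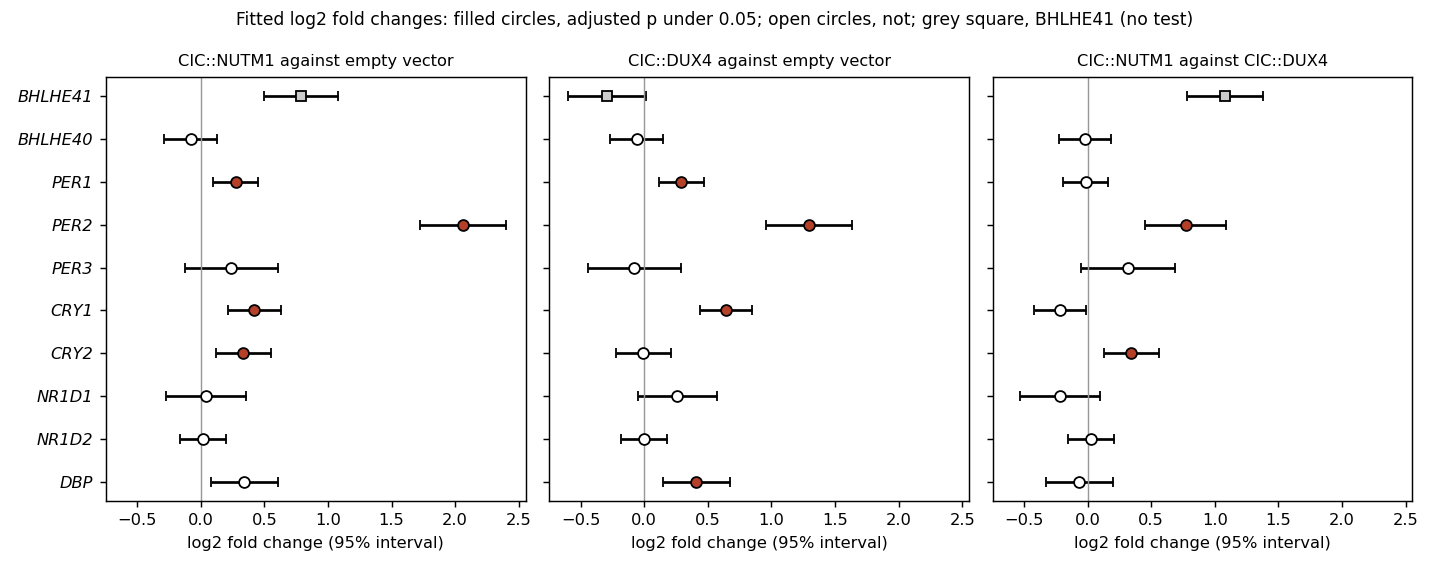
Log2 fold changes of the 10 genes with 95% intervals (horizontal axis), for CIC::NUTM1 and CIC::DUX4 against empty vector and for CIC::NUTM1 against CIC::DUX4. Filled points passed the edgeR threshold of 0.05 after adjustment, and BHLHE41 is drawn as a description. The PER2 intervals stand furthest to the right against empty vector, at 2.06 and 1.29.

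Many of the 10 genes had their lowest CIC::NUTM1 level in the same library. Replicate 2 was the lowest of its group for 7 of 10 (BHLHE41, PER1, PER2, PER3, CRY1, CRY2 and DBP). The same library was also the lowest of its group for NR4A3 (37.2 CPM, against 65.9 and 56.3 in the others) and FOS (23.2 CPM, against 52.7 and 41.8). Of the other cAMP and CREB-responsive genes listed below, NR4A1 and RGS2 were lowest there too, while SIK1, NR4A2 and CREM were lowest in replicate 3. The share of all tested genes that were lowest in replicate 2 was not counted, so the pattern is not shown to be particular to the clock genes. The part of this library in the results was not tested beyond leaving it out. Across the 9 libraries the Pearson correlation of log2 CPM was 0.926 for PER1 and DBP, 0.852 for BHLHE41 and CRY2 and -0.149 for BHLHE41 and BHLHE40. These are descriptions over libraries that share 3 groups.

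Compared per kilobase of the longest GENCODE 29 transcript, with empty vector CRY1 was the most abundant of the 10 (15.1 ± 0.664 CPM per kb, SD, n = 3). PER1 (13.7 ± 1.20), BHLHE40 (13.1 ± 0.805) and NR1D2 (11.2 ± 1.18) followed. CRY2 (5.31 ± 0.245), DBP (4.06 ± 0.491), BHLHE41 (3.76 ± 0.4996) and NR1D1 (3.63 ± 0.272) came next, and PER2 (1.97 ± 0.0280) and PER3 (1.58 ± 0.356) were lowest. PER1 and BHLHE40, DBP and BHLHE41, and BHLHE41 and NR1D1 are neighbours that lie closer than the larger SD of the pair. PER2 went from the 9th level with empty vector to the 5th with CIC::NUTM1 (8.28 ± 1.94 CPM per kb) and the 7th with CIC::DUX4 (4.82 ± 0.816). BHLHE41 was the 7th with empty vector and with CIC::NUTM1 (6.46 ± 0.564) and the 9th with CIC::DUX4 (3.07 ± 0.603). The order depends on the length used: with the median transcript length, 0 of 10 genes kept their place with empty vector or with CIC::DUX4, and 1 (DBP) with CIC::NUTM1.

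Members that share exon bases with a gene on the other strand could take its reads where strand was not used in counting. BHLHE41 shares 162 exon bases with SSPN, which was at 3.91, 3.58 and 3.44 CPM (group means) and was not called (adjusted p = 0.806 and 0.747 for CIC::NUTM1 and CIC::DUX4). DBP shares 661 with SPHK2 (34.2, 35.6 and 40.1 CPM, adjusted p = 0.772 and 0.202), and NR1D1 shares 263 with THRA (84.6, 84.7 and 77.7 CPM, adjusted p = 0.999 and 0.402). CRY1 shares 94 with the antisense gene ENSG00000257548, whose means were 0.104, 0.625 and 0.385 CPM, at no more than 15 counts in any library. It was called higher with CIC::NUTM1 (adjusted p = 0.0294), a call that rests on few counts. PER2 shares 188 with ENSG00000225057, at no more than 16 counts in any library. PER3 shares 868 with UTS2 and 482 with ENSG00000236266, at no more than 2 and 7 counts. BHLHE40 shares 4 with BHLHE40-AS1, at no more than 40 counts. The part of these genes in the results was not tested.

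Other genes of the loop were counted from 3 lists. Beside these counts, 11.5% of all tested genes were called higher and 3.83% lower with CIC::NUTM1. With CIC::DUX4 the shares were 6.96% and 1.27%. Of the 7 activators of the loop and the receptors that drive BMAL1, 6 were tested. With CIC::NUTM1, 0 were called in either direction. With CIC::DUX4, BMAL1, the partner of CLOCK, rose by 0.59 ± 0.18 on the log2 scale (adjusted p = 0.0332, edgeR). Its levels were 7.15, 7.32 and 5.41 CPM with empty vector, 7.68, 9.49 and 7.62 CPM with CIC::NUTM1 and 9.19, 10.97 and 9.88 CPM with CIC::DUX4, above the controls without overlap in both. The BMAL1 call was lost without empty vector replicate 1 (adjusted p = 0.0529) or 3 (0.217) or CIC::DUX4 replicate 1 (0.0562), 2 (0.144) or 3 (0.062).

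Of 10 genes listed as modifying or degrading clock proteins, with TIMELESS counted among them, 0 rose and 1 fell with CIC::NUTM1. With CIC::DUX4, 1 rose and 1 fell. The gene that fell with both was TIMELESS, so the falls are not of a modifying or degrading enzyme. GSK3B, a kinase that phosphorylates clock proteins, was at 76.6, 87.3 and 81.8 CPM with empty vector and at 111.6, 107.5 and 98.9 CPM with CIC::DUX4. It rose by 0.37 ± 0.08 (adjusted p = 0.00136). With CIC::NUTM1 it was at 81.7, 85.5 and 92.4 CPM, not called against empty vector (0.08, adjusted p = 0.569) and lower than with CIC::DUX4 (-0.29 ± 0.08, adjusted p = 0.016). That last call was lost without CIC::NUTM1 replicate 1 (0.059) or CIC::DUX4 replicate 1 (0.0929) or 2 (0.0698). TIMELESS, a replication and clock protein, fell by 0.21 ± 0.06 with both fusions (adjusted p = 0.0141 and 0.0227). Its CIC::NUTM1 call was lost without empty vector replicate 3 (0.0748), and its CIC::DUX4 call without empty vector replicate 2 (0.0669) or 3 (0.122) or CIC::DUX4 replicate 1 (0.115) or 2 (0.051).

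Of 8 output and D-box genes, 1 rose with CIC::NUTM1 and 0 with CIC::DUX4, and 0 fell. As 11.5% and 6.96% of all tested genes were called higher, the counts do not set this list apart. The gene that rose was WEE1, a cell cycle kinase whose transcription the clock controls. WEE1 was at 66.2, 67.0 and 66.6 CPM with empty vector, at 92.6, 91.9 and 100.2 CPM with CIC::NUTM1 and at 69.5, 71.3 and 69.9 CPM with CIC::DUX4. It rose by 0.51 ± 0.07 with CIC::NUTM1 (adjusted p = 6.79e-06) and was 0.43 ± 0.07 higher than with CIC::DUX4 (adjusted p = 0.000194), and both calls held in every refit without 1 library. With CIC::DUX4 it was also above the controls without overlap (0.08, adjusted p = 0.634), as were 14.8% of all tested genes.

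**Figure D4:**
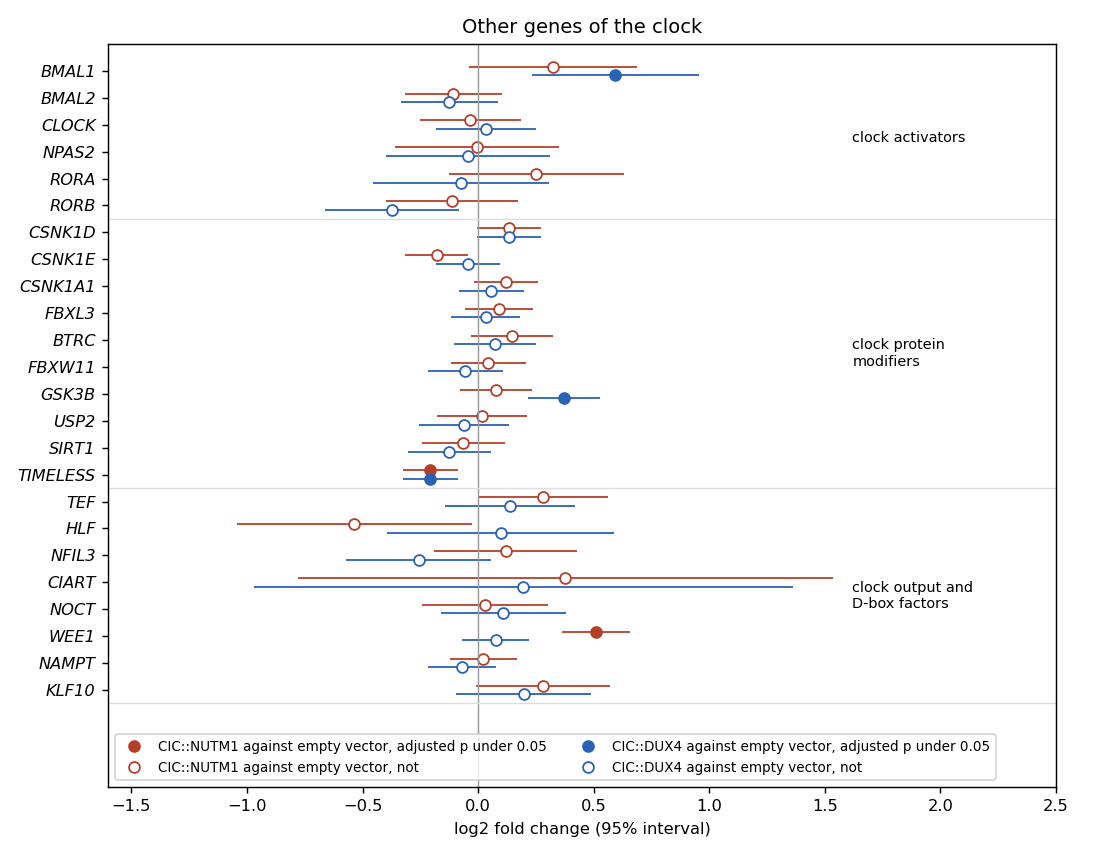
Log2 fold changes against empty vector with 95% intervals (horizontal axis) for the 24 tested genes of the clock activator, modifier and output lists, for CIC::NUTM1 and CIC::DUX4; filled points have an adjusted p under 0.05. The calls are WEE1 and TIMELESS with CIC::NUTM1 and BMAL1, GSK3B and TIMELESS with CIC::DUX4.

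Genes of 3 neighbouring programs were counted for comparison. Of 10 tested HES and HEY genes, relatives of the BHLHE repressors, 0 were called in any of the 3 comparisons. The shares of all tested genes called there were 15.3% (CIC::NUTM1), 8.24% (CIC::DUX4) and 6.61% (between the fusions). Of 9 tested hypoxia-inducible genes, a program known to induce BHLHE40 and BHLHE41, 0 rose with either fusion. NDRG1 and SLC2A1 fell with CIC::NUTM1, and with CIC::DUX4 these and PDK1 fell. Of all tested genes, 11.5% were called higher and 3.83% lower with CIC::NUTM1, and 6.96% and 1.27% with CIC::DUX4. The part of this program in the BHLHE41 and BHLHE40 values was not tested. The SLC2A1 call with CIC::NUTM1 was lost without empty vector replicate 1 (adjusted p = 0.06) or 3 (0.0999) or CIC::NUTM1 replicate 1 (0.0689) or 3 (0.0825). With CIC::DUX4 the SLC2A1 call was lost without empty vector replicate 1 (0.0783) or 3 (0.141) or CIC::DUX4 replicate 1 (0.207) or 2 (0.118). The PDK1 call was lost without empty vector replicate 1 (0.107) or 3 (0.155) or CIC::DUX4 replicate 1 (0.166) or 3 (0.112). NDRG1, a stress-response gene, changed by -0.44 ± 0.08 (adjusted p = 0.000192) and -0.46 ± 0.08 (adjusted p = 0.000169), and both calls held in all 6 refits without 1 library.

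Of 7 genes that respond to cAMP and CREB, the pathway known to induce PER1 and PER2, 5 rose with CIC::NUTM1 (SIK1, NR4A1, NR4A2, NR4A3 and FOS) and 3 with CIC::DUX4 (NR4A1, NR4A3 and FOS). CREM and RGS2 were not called with either fusion. Over all tested genes, 11.5% were called higher with CIC::NUTM1 and 6.96% with CIC::DUX4. The list was chosen with earlier results of these data known, so its count is a description and not a test of the pathway. NR4A3, an orphan nuclear receptor, was at 3.03, 3.54 and 4.21 CPM with empty vector, at 65.9, 37.2 and 56.3 CPM with CIC::NUTM1 and at 6.94, 7.09 and 7.47 CPM with CIC::DUX4. It rose by 3.87 ± 0.19 with CIC::NUTM1 (adjusted p = 9.47e-12) and by 0.98 ± 0.20 with CIC::DUX4 (adjusted p = 0.00219). FOS, an immediate early factor, rose by 3.18 ± 0.25 (adjusted p = 1.65e-06) and 1.57 ± 0.26 (adjusted p = 0.0017). The NR4A2 call was lost without empty vector replicate 1 (adjusted p = 0.161) or 2 (0.119) or CIC::NUTM1 replicate 1 (0.278). The part of this pathway in the PER values was not tested.

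By the highest Pearson correlation of log2 CPM over the 9 libraries, among 11528 other genes with a mean of at least 5 CPM, the genes most like BHLHE41 were DLEU2 (0.991), KLHL36 (0.973), KDM2B (0.965), PAX6 (0.963) and UACA (0.962). DLEU2 had means of 10.03, 14.96 and 8.68 CPM with empty vector, CIC::NUTM1 and CIC::DUX4. Those most like DBP were VASN (0.981), ENSG00000184441 (0.961), CNTROB (0.935), DTX2 (0.93) and ZNF628 (0.929). Those most like PER2, a list chosen after its values were seen, were BACH2 (0.997), TENT5C (0.996), NUAK1 (0.995), ERRFI1 (0.994) and ATXN1 (0.993). BACH2 had means of 10.7, 64.6 and 33.1 CPM, the same order of groups as PER2. That order follows from choosing BACH2 by its correlation with PER2. By Spearman correlation, 1 of the 5 genes for BHLHE41, 2 of the 5 for DBP and 0 of the 5 for PER2 were shared with these lists. Many Spearman values were tied: ranks 2 to 5 for BHLHE41 and for PER2 were all 0.983, and ranks 1 to 5 for DBP all 0.967. Ties were cut in alphabetical order, so a tied gene later in the alphabet could be left out. The shared counts therefore do not measure how far the 2 kinds of list differ.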

How the data were processed

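PolyA RNA of 9 libraries (3 per group) was measured. The authors deposited raw counts for 62700 Ensembl genes and log2 CPM for 15811 named genes. Per the submitters' processing notes, STAR 2.7.10b, R 4.2.2, edgeR 3.40.2 and GRCh38 were used; the annotation, counting program and strand use are not given in the sources used here. The deposited log2 values equalled those computed here from the counts (TMM, prior count 2) to within 4.97e-14 for 11514 matched genes over 100 mean counts. Symbols matched 62622 of 62700 IDs.

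In R 4.3.3, edgeR 4.0.16 (filterByExpr, TMM, robust quasi-likelihood, 1 mean per group, 17576 genes) gave the tests, with a Benjamini-Hochberg threshold of 0.05 and a biological coefficient of variation of 10.1%. The SE is the difference divided by the square root of F. P-values measure the spread between these libraries, transfected on separate days. GENCODE 29 gave positions, lengths and overlaps, and RefSeq gave promoters. Scripts were tested on simulated data. Alternatives were other scalings, filters, DESeq2 1.42.0, limma 3.58.1, a replicate block, only the groups compared and each library left out. Figures used matplotlib 3.10.9.

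The members and lists were chosen with earlier results of these data known. All members are named, genes of the lists where called, and the 5 genes most like BHLHE41 and DBP. The fused genes are not analysed here.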

Additional observations from a re-analysis of the deposited data

How the results depend on the processing

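PER2 and CRY1 kept direction and call against empty vector under all 9 other settings and in every refit without 1 library. With a replicate block the clock genes called were 4, 4 and 1 for CIC::NUTM1 and CIC::DUX4 against empty vector and between the fusions (without it 4, 4 and 2). Deviations of same-numbered libraries correlated between -0.0308 and 0.0753, 0 of 9 over 0.1, so the number was not used for pairing. Between the fusions 1 clock gene was called also with DESeq2 size factors, library totals, upper quartile factors, no filter and only the groups compared, since CRY2 was lost. With CIC::NUTM1, library totals and upper quartile factors each left 2 clock genes called. Without 1 library the counts were 2 to 5, 2 to 4 and 1 to 2. DBP lost its CIC::DUX4 call with DESeq2 size factors (adjusted p = 0.0518), upper quartile factors (0.0601), at least 10 counts in every library (0.0635) and DESeq2 (0.059), and gained a CIC::NUTM1 call with no filter (0.0403). CRY2 between the fusions had adjusted p = 0.0541 with DESeq2 size factors, 0.101 with library totals, 0.0761 with upper quartile factors, 0.0729 with no filter, 0.0563 with the block and 0.0974 with only the groups compared. With the median transcript length 0 of 10 members kept their place in the empty vector order.

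Over all genes, 2018 were higher and 673 lower with CIC::NUTM1, 1224 and 224 with CIC::DUX4, and 874 and 288 between the fusions. The split with library totals was 1783 and 1138, and 1807 and 1124 with upper quartile factors, and between the fusions 695 and 437 and 753 and 379. CIC::DUX4 lowered 380 genes with no filter and 407 with only the groups compared, and raised 774 with at least 10 counts in every library. Without 1 library the counts were 1625 to 2134 higher and 278 to 977 lower, 805 to 1258 and 60 to 229, and 516 to 940 and 156 to 324.

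Differences near 0 changed sign. With library totals NR1D1 and NR1D2 with CIC::NUTM1 were -0.0033 and -0.0236 and NR1D2 between the fusions -0.0212. With upper quartile factors NR1D2 was -0.0208 and -0.0074, with no filter -0.0013 (CIC::NUTM1), and with limma 0.0012 (CIC::DUX4). Without 1 library the CIC::NUTM1 differences spanned -0.0179 to 0.105 (NR1D1), -0.0532 to 0.104 (NR1D2) and -0.203 to 0.0071 (BHLHE40). Those of CIC::DUX4 spanned -0.186 to 0.12 (PER3), -0.0555 to 0.0468 (CRY2) and -0.0763 to 0.0800 (NR1D2). Between the fusions they spanned -0.141 to 0.0739 (BHLHE40), -0.0868 to 0.0303 (PER1), -0.0373 to 0.0897 (NR1D2) and -0.249 to 0.0619 (DBP). The cause of these changes was not tested. With 3 libraries a group, the SE of a member's difference was 0.09 to 0.18, which limits what could be detected.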
